A study of Mus musculus with 2 samples.

Results

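The 10 genes described here are textbook targets of canonical WNT signalling, most of which encode parts of the pathway that feed back on it. They were taken by symbol from the 32285 genes counted in this series: the transcription factors Lef1, Tcf7 and Sp5, the intracellular negative regulators Axin2 and Nkd1, the secreted inhibitors Dkk1 and Notum, and the receptor-level regulators Rnf43, Znrf3 and Lgr5. When a WNT ligand binds a Frizzled receptor and its LRP co-receptor, the complex that destroys beta-catenin is disabled, and beta-catenin enters the nucleus and works with TCF/LEF proteins on target genes. In the posterior end of the mouse embryo, which gastruloids model, WNT signalling maintains axial progenitors and drives mesoderm formation. CHIR99021, given to both cultures here, inhibits the kinase GSK3 within the destruction complex and so activates the pathway without a ligand.

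The dTAG-13 library held cells from somitic gastruloids given 100 nM dTAG-13 at 72 and 96 h, and its counterpart came from gastruloids labelled untreated, for which the series text names DMSO. In both, the cells were an E14 mouse embryonic stem cell line with a triple reporter and with HA-FKBP12F36V fused to endogenous Zeb2, so the control cells carried the degron tag too. dTAG-13 recruits a ubiquitin ligase to the tagged ZEB2 protein, a zinc-finger transcription factor, so the Zeb2 transcript does not check the labels. Aggregates of 300 sorted cells received 3 µM CHIR99021 at 48 h and 10% Matrigel at 96 h, about 32 of them were pooled per library, and 10000 live cells were loaded on a 10x Genomics 3' v3.1 run. No label states the hour at which the gastruloids were collected.

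With 1 library per condition there is no replicate of the comparison, and no p-value is given. Each level is given as CPM, the number of UMIs (unique molecular identifiers, which mark single captured transcripts) of a gene per 1000000 UMIs of the same cells, with an exact 95% Poisson interval. Every ratio is log2 of dTAG-13 over untreated with an exact conditional interval. These intervals cover counting error only, treat the UMIs of a cell as independent, and say nothing of how gastruloid pools vary. After filtering, 6688 dTAG-13 cells with 151601709 UMIs (median 20207 per cell) and 6231 untreated cells with 140019633 UMIs (median 20073) were kept, and 10 kept barcodes occurred in both libraries. A gene counted as measured with at least 50 UMIs in both libraries together and as called when the libraries differed by at least 1.5-fold.

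Lineages were read from single marker genes: a gate is the kept cells with at least 2 UMIs of T, Sox2, Tbx6, Meox1, Pim2, Sfn, Foxa2, Sox17 or Zfp42. The T gate held 959 dTAG-13 and 1387 untreated cells, or 14.3% of kept dTAG-13 cells and 22.3% of kept untreated cells. The dTAG-13 library had 3047 Sox2-positive, 179 Tbx6-positive, 626 Meox1-positive, 895 Pim2-positive, 1338 Sfn-positive, 587 Foxa2-positive, 164 Sox17-positive and 765 Zfp42-positive cells. In the untreated library there were 2989 Sox2-positive, 507 Tbx6-positive, 913 Meox1-positive, 258 Pim2-positive, 319 Sfn-positive, 262 Foxa2-positive, 110 Sox17-positive and 524 Zfp42-positive cells. As shares of kept cells, the T, Tbx6 and Meox1 gates were smaller in dTAG-13 and the Pim2, Sfn, Foxa2 and Zfp42 gates larger. The Sox17 gate held 2.45% of dTAG-13 cells (2.09 to 2.85) and 1.77% of untreated cells (1.45 to 2.12). The Sox2 gate held 45.6% of dTAG-13 cells (44.4 to 46.8) and 48.0% of untreated cells (46.7 to 49.2), and in both gates these exact 95% binomial intervals overlap slightly. Such intervals treat cells as independent. For no gate do they cover how the make-up of gastruloid pools varies. Gates overlap, since 36.2% of dTAG-13 cells and 28.4% of untreated cells passed more than 1 gate, and of Zfp42-positive cells 96.2% did in dTAG-13 and 96.6% in untreated. Against other markers of the same lineage, the Tbx6, Meox1 and Foxa2 gates had all 4 further markers at least 2-fold above their own library, and the Zfp42 gate all 5. The T gate had 2 of 4 in each library, Pim2 2 of 4 in dTAG-13 and 3 of 4 in untreated, Sfn 3 of 5 in dTAG-13 and 5 of 5 in untreated, and Sox17 4 of 5 in dTAG-13 and 5 of 5 in untreated. The Sox2 gate had 0 of 5 further markers that far above either library and is called only by its gene. Endothelium can express Sox17 too: 5 endothelial markers together had 23.2 CPM in the dTAG-13 and 67.7 CPM in the untreated Sox17 gate, beside 25.9 CPM in all dTAG-13 and 24.8 CPM in all untreated cells. At least 2-fold above the library were 2 of the 5 in dTAG-13 and 4 of the 5 in untreated. Their part in the differences within that gate was not tested. T is a WNT target itself, so a T gate is not independent of the pathway.

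TCF/LEF proteins bind the core CTTTGA, which reads TCAAAG on the other strand. RefSeq windows (GRCm38.p6) from 250 bases before to 50 after each annotated start were searched for it on both strands. Of 12 windows for 7 matched members, 3 held the core, those of Sp5, Dkk1 and 1 of the 4 windows of Lef1, each with 2 occurrences. In the same search 16.0% of 32851 windows of all genes held it. The windows of Axin2, Tcf7, Nkd1 and Rnf43 and the other Lef1 windows had no such letters, which says nothing of sites elsewhere. The 3 windows with the core and a Rnf43 window without it are shown 5′ to 3′ on the gene's strand, with the core in capitals. They are shown because Sp5 and Lef1 were lower and Dkk1 and Rnf43 higher in the dTAG-13 library. Sp5 is at chr2:70474673-70474972 on the plus strand, Dkk1 at chr19:30549447-30549746 on the minus strand, Lef1 at chr3:131156044-131156343 and Rnf43 at chr11:87662837-87663136, both on the plus strand.
Sp5: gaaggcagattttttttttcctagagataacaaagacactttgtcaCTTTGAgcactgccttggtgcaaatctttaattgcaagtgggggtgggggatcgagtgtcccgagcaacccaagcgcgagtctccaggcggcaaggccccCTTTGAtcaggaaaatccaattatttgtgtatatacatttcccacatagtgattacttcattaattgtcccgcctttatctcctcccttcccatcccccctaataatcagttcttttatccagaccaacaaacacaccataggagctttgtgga
Dkk1: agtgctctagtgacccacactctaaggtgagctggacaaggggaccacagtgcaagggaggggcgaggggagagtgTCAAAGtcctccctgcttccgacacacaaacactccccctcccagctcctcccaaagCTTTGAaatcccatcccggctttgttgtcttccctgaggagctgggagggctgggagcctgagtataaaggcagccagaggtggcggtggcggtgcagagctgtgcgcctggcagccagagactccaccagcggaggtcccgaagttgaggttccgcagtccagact
Lef1: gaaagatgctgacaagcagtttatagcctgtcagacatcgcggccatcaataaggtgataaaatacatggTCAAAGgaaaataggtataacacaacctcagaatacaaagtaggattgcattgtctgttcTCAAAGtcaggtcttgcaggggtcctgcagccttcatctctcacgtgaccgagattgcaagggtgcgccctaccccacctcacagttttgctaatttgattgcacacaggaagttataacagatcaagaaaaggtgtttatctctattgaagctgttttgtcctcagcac
Rnf43: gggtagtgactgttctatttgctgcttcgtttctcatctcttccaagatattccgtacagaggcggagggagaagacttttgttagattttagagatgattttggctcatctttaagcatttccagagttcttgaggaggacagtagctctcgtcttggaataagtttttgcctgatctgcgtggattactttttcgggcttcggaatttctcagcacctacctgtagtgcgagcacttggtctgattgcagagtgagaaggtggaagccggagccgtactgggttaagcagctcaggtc
The cores start 204 and 104 bases before the start that the window belongs to in Sp5, 174 and 117 in Dkk1 and 180 and 120 in Lef1. That Lef1 start lies inside the gene, downstream of its first start, and the windows nearest the first start held no core. The only Nkd1 window, chr8:88527383-88527682, also lies inside its gene, which begins at 88521354, so the region before that position was not searched. Both Rnf43 windows, the one shown and chr11:87699647-87699946, likewise lie inside that gene, which begins at 87662722. The region before the annotated start of Rnf43 was therefore not searched either. The longer form CTTTGAA or CTTTGAT remained in Sp5 and Dkk1, 1 occurrence each, against 8.65% of all windows.

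Over whole libraries the members did not move together. Rnf43 was called higher in the dTAG-13 library and Nkd1 lower, with 8 neither, while 8.70% of the 16141 genes measured were called higher and 3.30% lower. Counting intervals lay above 0 for Dkk1 and Rnf43, below 0 for Axin2, Lef1, Tcf7, Sp5, Nkd1 and Notum, and across 0 for Znrf3 and Lgr5. The median ratio was -0.13 over the members and 0.04 over all genes. With TMM or median-of-ratios scaling Notum also passed the fold, giving 1 higher and 2 lower. A summed level is lower with fewer expressing cells as well as with fewer UMIs per cell, so the whole-library values are followed here through the gates.

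Over the 9 gates and the T with Sox2 and T with Tbx6 pairs, 102 combinations of member and gate were measured, of which 10 were called higher and 9 lower. The T gate had 3 members called higher (Dkk1, Rnf43 and Lgr5) and 0 lower, where 8.30% of all measured genes were called higher and 2.43% lower. In the Sox2 gate 2 were higher (Dkk1 and Rnf43) and 1 lower (Nkd1), against 8.20% and 3.59% of genes. Tbx6-positive cells had 0 higher and 1 lower (Notum), against 4.16% and 3.08%, and Meox1-positive cells 1 higher (Rnf43) and 0 lower, against 3.68% and 1.87%. The Pim2 gate had 0 higher and 2 lower (Dkk1 and Sp5), against 4.36% and 3.40%, and the Sfn gate 1 higher (Dkk1) and 0 lower, against 6.66% and 5.38%. Foxa2-positive cells had 0 higher and 2 lower (Sp5 and Nkd1), against 3.91% and 3.59%, and Sox17-positive cells 0 higher and 1 lower (Nkd1), against 2.61% and 2.58%. In the Zfp42 gate 1 was higher (Dkk1) and 0 lower, against 3.31% and 1.58%. Cells positive for T and Sox2 had 2 higher (Dkk1 and Rnf43) and 0 lower, against 6.85% and 2.90%, and those positive for T and Tbx6 had 0 higher and 2 lower (Lef1 and Notum), against 4.82% and 6.0%. The calls higher were thus of Dkk1, Rnf43 and Lgr5 and those lower of Nkd1, Notum, Sp5, Lef1 and, in the Pim2 gate, Dkk1. The median over measured members was -0.53 in the T and Tbx6 cells against -0.04 over all genes there, and 0.01 in the Meox1 gate against 0.01.

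**Figure D1:**
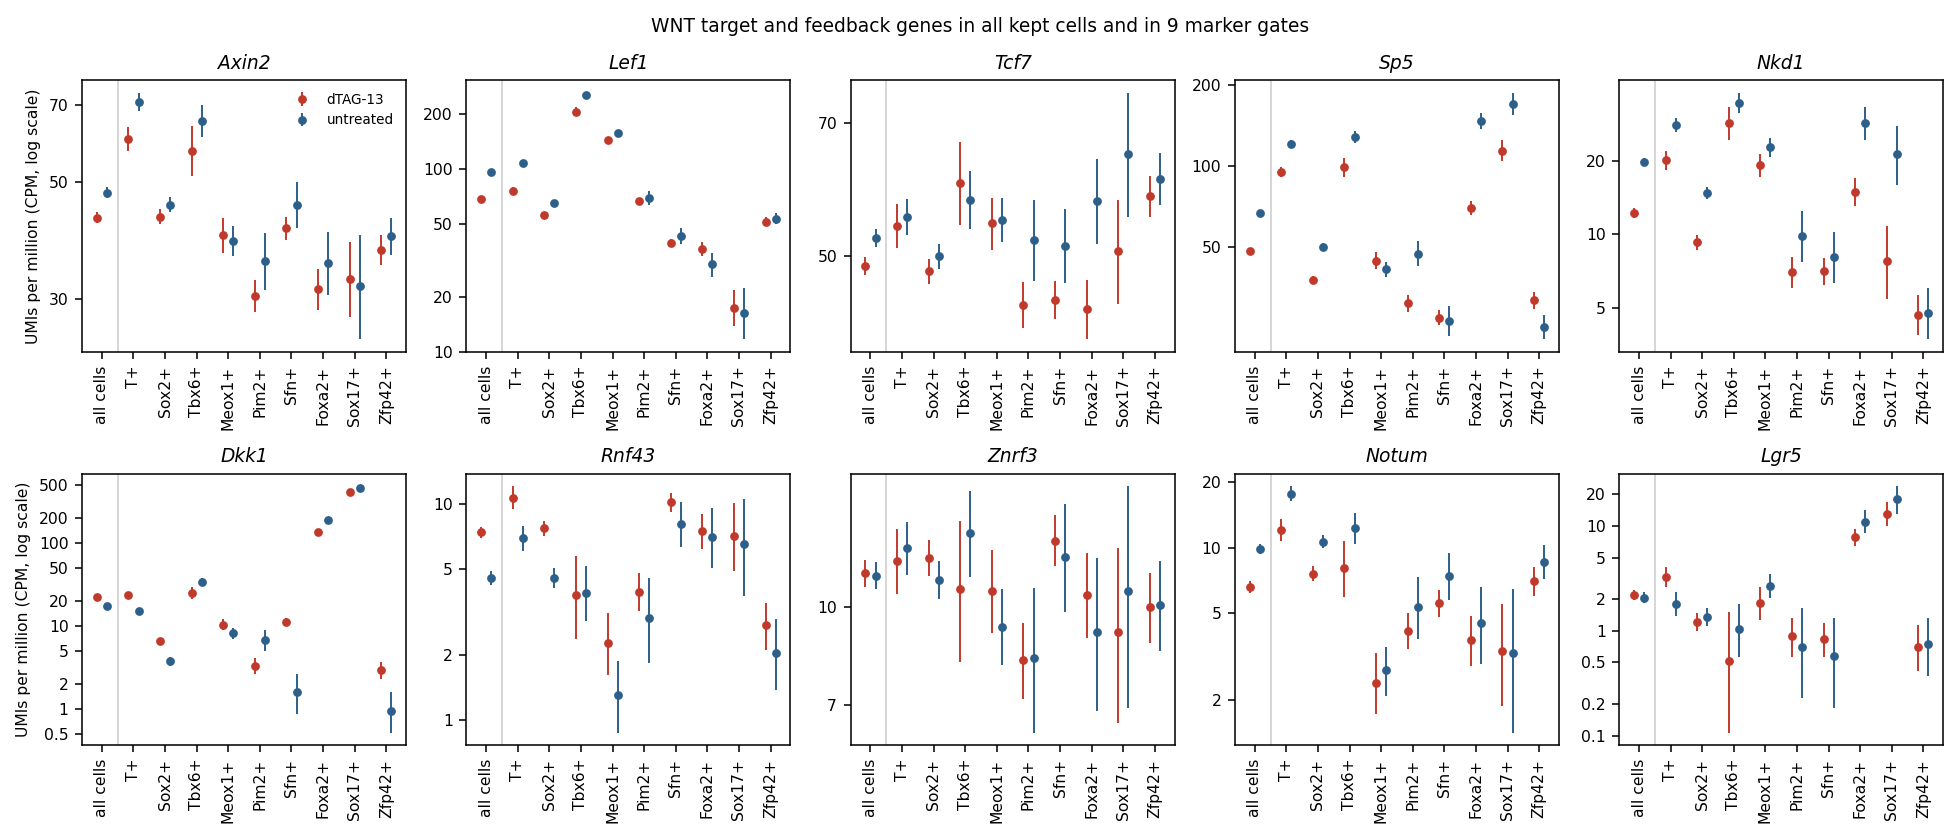
Level of each gene in CPM (log axis, its own range per panel) in all kept cells and in 9 marker gates, dTAG-13 left of untreated, with exact 95% Poisson intervals of the counts. Dkk1 reached 418 CPM in dTAG-13 and 462 CPM in untreated Sox17-positive cells, while Tcf7 and Znrf3 varied little between gates.

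Among the transcription factors, Lef1 (chr3:131110471-131224356, plus strand), a DNA-binding partner of beta-catenin, had 68.8 CPM (67.5 to 70.1) in the dTAG-13 library, against 96.4 CPM (94.8 to 98.03) in the untreated library. Its ratio was -0.49 (-0.52 to -0.45), short of the 1.5-fold mark. Lef1 was highest in the Tbx6 gate, with 205 CPM (dTAG-13) and 252 CPM (untreated), followed by the Meox1 gate with 144 CPM (dTAG-13) and 157 CPM (untreated). At the other end, Sox17-positive cells had 17.4 CPM in dTAG-13 and 16.3 CPM in untreated. The ratio was -0.51 (-0.59 to -0.43) in the T gate, -0.30 in the Tbx6 gate, -0.21 in the Sox2 gate and -0.12 in the Meox1 gate, each interval below 0. In cells positive for T and no other marker it was -0.23 (-0.38 to -0.08), and in those positive for Sox2 alone -0.04 (-0.13 to 0.06). Tbx6 alone gave -0.18 (-0.35 to -0.02) and Meox1 alone -0.08 (-0.17 to 0.01). The ratio went the other way in Foxa2-positive cells, which had 36.5 CPM (dTAG-13) and 30.0 CPM (untreated), a ratio of 0.28 (0.04 to 0.54). In cells positive for Sfn alone it was 0.85 (0.14 to 1.65), from 247 dTAG-13 and 17 untreated UMIs. In cells positive for T and Tbx6 together, Lef1 was called lower, with 130 CPM (117 to 145) in dTAG-13 and 208 CPM (196 to 220) in untreated (ratio -0.67), but was at -0.50 with gates at 1 UMI, short of the fold. Those cells numbered 68 in dTAG-13 and 219 in untreated.

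Sp5 (chr2:70474923-70477729, plus strand), a zinc-finger factor induced by WNT, had 48.1 CPM (47.0 to 49.2) in dTAG-13, against 67.0 CPM (65.6 to 68.3) in untreated, a ratio of -0.48 (-0.52 to -0.43). The Sox17 gate had 114 CPM in dTAG-13 and 170 CPM in untreated, ahead of but overlapping in its interval with the next gate, Tbx6 (98.9 CPM) in dTAG-13 and Foxa2 in untreated. With cells thinned to 5000 UMIs, and gates read again from the thinned counts, the Tbx6 gate led in dTAG-13. The Tbx6 and T gates did not differ beyond their intervals in either library. The Foxa2 gate held the widest difference of Sp5, with 69.8 CPM (65.8 to 74.1) in dTAG-13 and 147 CPM (138 to 157) in untreated. That ratio of -1.08 (-1.21 to -0.95) was called lower, and it was -0.95 in cells positive for Foxa2 and no other marker. Pim2-positive cells were also called lower for Sp5 (-0.62), although among those with no other marker the ratio was -0.23 with an interval that held 0, and -0.22 with gates at 3 UMIs. The ratio was -0.35 in the T gate, -0.41 in the Sox2 gate, -0.38 in the Tbx6 gate and -0.58 in the Sox17 gate, each with its interval below 0, and 0.03 in cells positive for Tbx6 alone. Zfp42-positive cells had the opposite sign, with 31.6 CPM (29.4 to 33.9) in dTAG-13 and 25.1 CPM (22.6 to 27.8) in untreated, a ratio of 0.33 (0.15 to 0.52). This turned to -0.23 with gates at 1 UMI and to -0.34 with cells thinned to 5000 UMIs. Cells positive for Sox2 alone had 40.2 CPM in dTAG-13 and 40.9 CPM in untreated, so the ratio of the whole Sox2 gate did not hold in its cells outside other gates. Those positive for Meox1 alone had 41.1 CPM in dTAG-13 and 29.8 CPM in untreated, a ratio of 0.47 (0.26 to 0.67).

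Tcf7 (chr11:52252371-52283014, minus strand), the gene of TCF1, another beta-catenin partner, varied least between the 9 gates of the 10 members. It had 48.7 CPM (47.6 to 49.9) in dTAG-13 and 52.3 CPM (51.1 to 53.5) in untreated, a ratio of -0.10 (-0.15 to -0.06). Its highest gate was 1.38-fold above its lowest in dTAG-13 and 1.30-fold in untreated. The lowest ratio was in Foxa2-positive cells, where 43.6 CPM in dTAG-13 stood against 57.5 CPM in untreated (-0.40, -0.59 to -0.21), although with thinned cells it was 0.19. Intervals also lay below 0 in the Sox17, Pim2 and Sfn gates, and none of the 9 gates had one above 0. In T and Tbx6 double-positive cells it did lie above 0, with 66.0 CPM in dTAG-13 and 52.2 CPM in untreated (0.34, 0.06 to 0.61).

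Axin2 (chr11:108920349-108950783, plus strand), the scaffold of the destruction complex and the usual readout of pathway activity, had 42.8 CPM (41.8 to 43.9) in dTAG-13 and 47.8 CPM (46.6 to 48.9) in untreated, a ratio of -0.16 (-0.21 to -0.11). Levels were highest in T-positive cells, with 60.5 CPM in dTAG-13 and 71.2 CPM in untreated, and in Tbx6-positive cells, with 57.5 CPM in dTAG-13 and 65.4 CPM in untreated. These 2 gates did not differ beyond their intervals in either library. The remaining gates lay between 30.4 and 43.0 CPM in dTAG-13 and between 31.8 and 45.4 CPM in untreated. The ratio ran from -0.23 in the T gate to 0.04 in the Meox1 and Sox17 gates and passed 1.5-fold in none of the 9. Cells positive for Sox2 alone had 45.0 CPM in dTAG-13 and 40.6 CPM in untreated (0.15, 0.04 to 0.26), and those positive for Tbx6 alone 77.6 CPM in dTAG-13 and 58.4 CPM in untreated (0.41, 0.07 to 0.74). Both are opposite in sign to their full gates, which include cells of other gates. In T and Tbx6 double-positive cells the ratio was -0.55 (-0.84 to -0.26).

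Nkd1 (chr8:88521354-88594884, plus strand), a cytoplasmic protein that binds Dishevelled and dampens the signal, was the member called lower over whole libraries. It had 12.3 CPM (11.7 to 12.8) in dTAG-13, against 19.7 CPM (18.9 to 20.4) in untreated, a ratio of -0.68 (-0.77 to -0.60). The sign was negative in all 9 gates, with 7 intervals below 0 and those of the Sfn and Zfp42 gates across it, which were at 0.07 and 0.01 with gates at 3 UMIs. It was called lower in the Sox2 gate, with 9.27 CPM in dTAG-13 and 14.7 CPM in untreated (-0.67). In Foxa2-positive cells there were 14.9 CPM in dTAG-13 and 28.4 CPM in untreated (-0.93, -1.22 to -0.63). In Foxa2-positive cells with no other marker the ratio was -0.13 (-1.01 to 0.81), from 38 dTAG-13 and 16 untreated UMIs, and with thinned cells the gate was at -0.58. Sox17-positive cells had 7.80 CPM from 35 UMIs in dTAG-13 and 21.2 CPM from 52 UMIs in untreated (-1.44, -2.10 to -0.80). The Tbx6 gate was highest in each library, at 28.4 CPM in dTAG-13 and 34.5 CPM in untreated, and there the ratio was -0.28. Among Sox2-only cells the ratio was -0.35 (-0.56 to -0.15), and with T and Sox2 but no other marker it was -0.62 (-1.01 to -0.24). The other gates compared without shared cells had intervals that held 0. Their ratios were -0.26 (-0.53 to 0.01) for T, -0.10 for Tbx6, -0.18 for Meox1, -0.05 for Pim2 and 0.28 for Sfn, beside that of Foxa2 above.

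**Figure D2:**
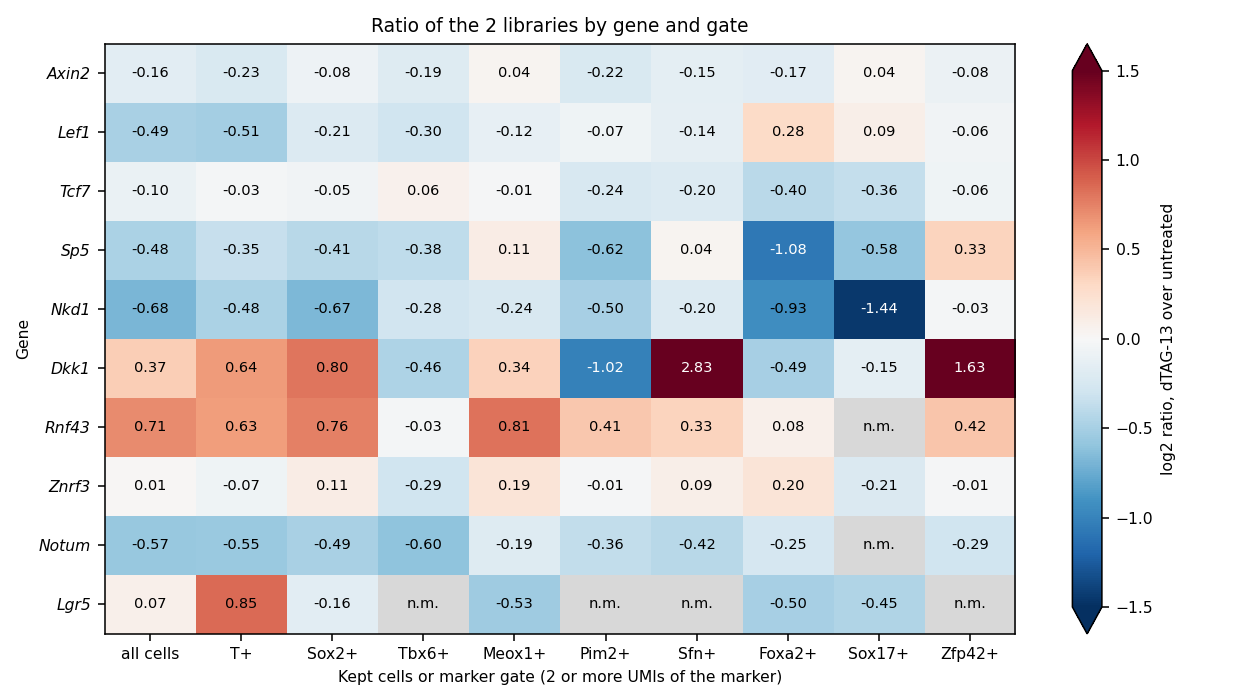
log2 ratio of dTAG-13 over untreated for each gene (rows) in all kept cells and in each gate (columns), where red is higher in dTAG-13, blue is lower, colours saturate at 1.5 and n.m. marks fewer than 50 UMIs. Nkd1 is negative in every gate, whereas Dkk1 runs from 2.83 in the Sfn gate to -1.02 in the Pim2 gate.

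Dkk1 (chr19:30545863-30549665, minus strand), a secreted protein that binds the LRP co-receptors and blocks ligand signalling, had 22.5 CPM (21.8 to 23.3) in dTAG-13 and 17.5 CPM (16.8 to 18.2) in untreated, a ratio of 0.37 (0.29 to 0.44). Its transcripts sat in few cells. Sox17-positive cells had 418 CPM (399 to 437) in dTAG-13 and 462 CPM (436 to 490) in untreated, and Foxa2-positive cells 136 CPM in dTAG-13 and 191 CPM in untreated. Zfp42-positive cells had 2.94 CPM in dTAG-13 and 0.953 CPM in untreated, so the gates spanned 142-fold in dTAG-13 and 485-fold in untreated. With cells thinned to 5000 UMIs, 50% of dTAG-13 and 59.1% of untreated Sox17-positive cells held a Dkk1 UMI, against 1.05% of dTAG-13 and 1.34% of untreated Zfp42-positive cells. For these shares the gates were still those of the unthinned counts. Unthinned, the share was 73.2% in dTAG-13 and 72.7% in untreated in the Sox17 gate, and 3.40% in dTAG-13 and 2.48% in untreated in the Zfp42 gate. Median UMIs per cell were 23596 (dTAG-13) and 19609 (untreated) in the Sox17 gate and 27324 (dTAG-13) and 26202 (untreated) in the Zfp42 gate.

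Dkk1 was also the member whose direction depended most on the cells counted. Foxa2- or Sox17-positive cells made up 9.78% of dTAG-13 and 4.83% of untreated cells and held 73.5% of dTAG-13 and 56.4% of untreated Dkk1 UMIs. Within both of those gates Dkk1 was lower in dTAG-13, with ratios of -0.49 (-0.60 to -0.39) in the Foxa2 gate and -0.15 (-0.25 to -0.04) in the Sox17 gate, while Foxa2-positive cells with no other marker were at -0.04 and thinned Sox17-positive cells at 0.16. Without those cells, a comparison added after the data were seen, the remaining cells had 6.74 CPM in dTAG-13 and 7.99 CPM in untreated, a ratio of -0.25 (-0.37 to -0.12). The sign of the whole-library ratio thus turned when these cells were left out.

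Dkk1 was called higher in the T gate, with 23.8 CPM (21.8 to 25.8) in dTAG-13 and 15.2 CPM (13.9 to 16.6) in untreated (0.64), and in the Sox2 gate, with 6.62 CPM in dTAG-13 and 3.80 CPM in untreated (0.80). Without Foxa2- or Sox17-positive cells these ratios were 0.16 (-0.05 to 0.37) in the T gate and -0.11 (-0.39 to 0.17) in the Sox2 gate, and with gates at 1 UMI both were 0.22, although in cells positive for T and no other marker the ratio was 0.88 (0.54 to 1.22). Cells positive for T and Sox2 were called higher as well (0.88), and were at -0.09 with no other marker. In the Sfn gate 408 dTAG-13 UMIs stood against 14 untreated UMIs, a ratio of 2.83 (2.06 to 3.71). This ratio turned to -0.32 with cells thinned to 5000 UMIs and gates read again from the thinned counts, and was 0.10 with gates at 1 UMI. Of the 408, 273 came from 10 cells and 367 from cells also positive for T, Tbx6, Foxa2 or Sox17, and without Foxa2- or Sox17-positive cells the ratio was 0.80 (-0.05 to 1.77). The Zfp42 gate (1.63, 0.79 to 2.57) rested on 71 UMIs in dTAG-13 and 14 in untreated, 55 of the 71 in 10 cells, and was 1.00 (0.11 to 1.99) without Foxa2- or Sox17-positive cells and 0.0083 with no doublet removal. It was also 0.85 (0.47 to 1.23) without them in the Meox1 gate, where all cells gave 0.34 (0.03 to 0.65) and those with no other marker 0.08 (-0.47 to 0.62). Dkk1 was called lower in the Pim2 gate, with 3.34 CPM (2.67 to 4.13) in dTAG-13 and 6.76 CPM (4.98 to 8.96) in untreated (-1.02). That came from 86 dTAG-13 and 48 untreated UMIs, 41 of the 48 in 10 cells, and the ratio was -0.37 (-1.03 to 0.34) without Foxa2- or Sox17-positive cells and 0.06 with no doublet removal. In the Tbx6 gate the ratio was -0.46 (-0.74 to -0.19), but 0.20 with gates at 3 UMIs.

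Notum (chr11:120653788-120661175, minus strand), a secreted enzyme that removes the lipid WNT ligands need to bind their receptors, had 6.60 CPM (6.20 to 7.02) in dTAG-13 and 9.81 CPM (9.29 to 10.3) in untreated, a ratio of -0.57 (-0.69 to -0.45). Unlike Dkk1 it was negative in all 8 gates where it was measured, with 3 intervals below 0 and 5 that held 0. T-positive cells were highest, at 12.1 CPM in dTAG-13 and 17.7 CPM in untreated (-0.55, -0.76 to -0.35), and Meox1-positive cells lowest of those gates, at 2.40 CPM in dTAG-13 and 2.73 CPM in untreated. Sox2-positive cells were at -0.49 (-0.64 to -0.33), and at -0.12 (-0.38 to 0.13) with no other marker. The Tbx6 gate was called lower, with 8.08 CPM from 47 UMIs in dTAG-13 and 12.3 CPM from 152 UMIs in untreated (-0.60, -1.11 to -0.12), and fell short of the fold with gates at 1 UMI (-0.46) or 3 UMIs (-0.53). In T and Tbx6 double-positive cells it was called lower too (-0.74, -1.43 to -0.11), from 26 dTAG-13 and 98 untreated UMIs. The secreted inhibitors thus differed in sign over the whole library and in the T, Sox2, Meox1, Sfn and Zfp42 gates, with the reversals of Dkk1 given above. The Notum interval held 0 in the Meox1 (-0.19, -0.80 to 0.41), Sfn (-0.42, -0.83 to 0.01) and Zfp42 gates (-0.29, -0.63 to 0.05).

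Rnf43 (chr11:87662722-87735539, plus strand), a membrane ubiquitin ligase that removes Frizzled receptors from the cell surface, was the member called higher over whole libraries. It had 7.41 CPM (6.98 to 7.85) in dTAG-13, against 4.54 CPM (4.20 to 4.91) in untreated, a ratio of 0.71 (0.56 to 0.85). Rnf43 was called higher in T-positive cells, with 10.7 CPM in dTAG-13 and 6.93 CPM in untreated (0.63, 0.37 to 0.89), and in Sox2-positive cells, with 7.71 CPM in dTAG-13 and 4.55 CPM in untreated (0.76, 0.57 to 0.95). With T and no other marker the ratio was 0.47, below the 1.5-fold mark, with an interval that held 0, and TMM scaling put the T gate at 0.57, also below it. In cells positive for Sox2 alone the ratio was 1.11 (0.81 to 1.40), from 9.59 CPM in dTAG-13 and 4.45 CPM in untreated. Cells with T and Sox2 but no other marker had 14.6 CPM in dTAG-13 and 7.29 CPM in untreated, a ratio of 1.00 (0.52 to 1.47). Meox1-positive cells were called higher (0.81, 0.08 to 1.56) from 38 dTAG-13 and 29 untreated UMIs, and were at 0.40 with gates at 3 UMIs. Levels in the Tbx6 gate were 3.78 CPM in dTAG-13 and 3.87 CPM in untreated, with a ratio of -0.03 (-0.83 to 0.72), and those in the Foxa2 gate 7.46 CPM in dTAG-13 and 7.06 CPM in untreated. In the Sfn gate the ratio was 0.33 (-0.04 to 0.72), and -0.46 (-1.14 to 0.28) in cells positive for Sfn alone. Without Foxa2- or Sox17-positive cells the whole-library ratio was 0.75 (0.61 to 0.90).

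Znrf3 (chr11:5276324-5444847, minus strand), the related ligase with the same action on Frizzled, stood near equal in the libraries. It had 11.3 CPM (10.8 to 11.8) in dTAG-13 and 11.2 CPM (10.7 to 11.8) in untreated, a ratio of 0.01 (-0.09 to 0.11), and its interval held 0 in all 9 gates. The gates lay between 8.24 and 12.7 CPM in dTAG-13 and between 8.31 and 13.1 CPM in untreated. Znrf3 intervals in the T and Sox2 gates, -0.29 to 0.15 and -0.02 to 0.25, do not reach those of Rnf43 there.

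Lgr5 (chr10:115450311-115587780, minus strand), a receptor for R-spondins, which shield Frizzled from the ligases, was scarce. It had 2.18 CPM (1.95 to 2.43) from 331 UMIs in dTAG-13 and 2.08 CPM (1.85 to 2.33) from 291 UMIs in untreated, a ratio of 0.07 (-0.16 to 0.30). Sox17-positive cells were highest with 13.1 CPM in dTAG-13 and 17.9 CPM in untreated, then Foxa2-positive cells with 7.78 CPM in dTAG-13 and 11.0 CPM in untreated. Foxa2- or Sox17-positive cells held 42.3% of its UMIs in dTAG-13 and 27.5% in untreated. In the T gate it was called higher, with 3.28 CPM (2.59 to 4.09) from 78 UMIs in dTAG-13 and 1.82 CPM (1.39 to 2.33) from 62 UMIs in untreated (0.85, 0.35 to 1.35). That ratio was 0.56 (-0.14 to 1.25) without Foxa2- or Sox17-positive cells, and it was -0.50 (-0.95 to -0.04) in the Foxa2 gate itself.

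To separate cell shares from levels, cells were split into 17 strata, of which 16 were exact combinations of gates with at least 50 cells in each library. The last pooled the remaining 931 dTAG-13 and 668 untreated cells, which held 19.3% of dTAG-13 and 13.4% of untreated UMIs and include cells positive for Sox17 alone. Each whole-library ratio was recomputed with the libraries' own shares of UMIs on common levels (share part) and with their own levels on common shares (part within strata). For Dkk1 the share part was 0.33 and the other 0.03. With gates at 1 UMI these were 0.25 and 0.11, with gates at 3 UMIs 0.32 and 0.04, and with no doublet removal 0.33 and 0.11. Rnf43 was the other way round, with 0.11 from shares and 0.56 within strata. The genes lower in dTAG-13 had both parts below 0, with the larger within strata for Nkd1 (-0.22 and -0.46), Notum (-0.22 and -0.35), Sp5 (-0.16 and -0.30), Lef1 (-0.21 and -0.27) and Tcf7 (-0.04 and -0.07). For Axin2 the share part, -0.12, exceeded the part within strata, -0.03, but with gates at 1 UMI they were closer, at -0.090 and -0.067. Over all genes the median share part was 0.00205 and the median part within strata 0.0330. Those of Znrf3 (-0.03 and 0.04) and Lgr5 (0.04 and 0.03) were near these. A stratum can still mix cell states, so its level is not that of a uniform cell type.

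**Figure D3:**
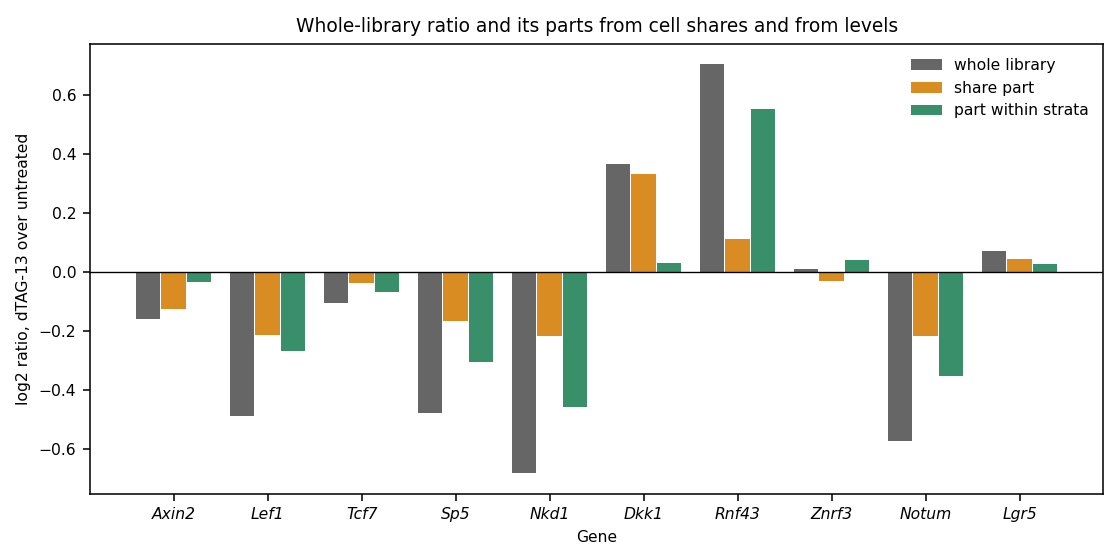
Whole-library log2 ratio of dTAG-13 over untreated for each gene (grey bars) beside its share part (orange) and its part within 17 strata (green), with no error bars since each is a single value. As drawn, Dkk1 is nearly all share part, 0.33, and Rnf43 mostly the part within strata, 0.56. With gates at 1 UMI the parts of Dkk1 were 0.25 (share) and 0.11 (within strata).

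Because T is a target of the pathway, members were also read against its level, in a grouping chosen after the data were seen. Cells were thinned to 5000 UMIs and grouped by 0, 1 or at least 2 remaining T UMIs, which gave 5761, 506 and 340 dTAG-13 cells and 5047, 674 and 423 untreated cells. Axin2 in dTAG-13 had 39.5, 64.0 and 58.2 CPM over these groups, while in untreated cells it had 41.8, 65.9 and 80.9 CPM. The ratio's interval held 0 at 0 and 1 T UMIs, and at 2 or more the ratio was -0.47 (-0.84 to -0.11). Sp5 had 41.0, 94.5 and 95.3 CPM in dTAG-13 and 54.8, 116 and 149 CPM in untreated, with ratios of -0.42, -0.30 and -0.65 whose intervals lay below 0. Lef1 was lower in dTAG-13 in all 3 groups too, with ratios of -0.50, -0.37 and -0.71. Dkk1 was higher in dTAG-13 in the top group, with 36.5 CPM (28.0 to 46.8) in dTAG-13 and 15.1 CPM (10.3 to 21.4) in untreated, a ratio of 1.27 (0.63 to 1.93). The T groups were not split by other markers. In the unthinned T gate 17.3% of dTAG-13 and 7.43% of untreated cells were also Foxa2-positive. Its Dkk1 ratio was 0.16 (-0.05 to 0.37) without Foxa2- or Sox17-positive cells and 0.88 (0.54 to 1.22) in cells with no other marker. Whether the libraries' ratios differ between T groups was not tested.

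**Figure D4:**
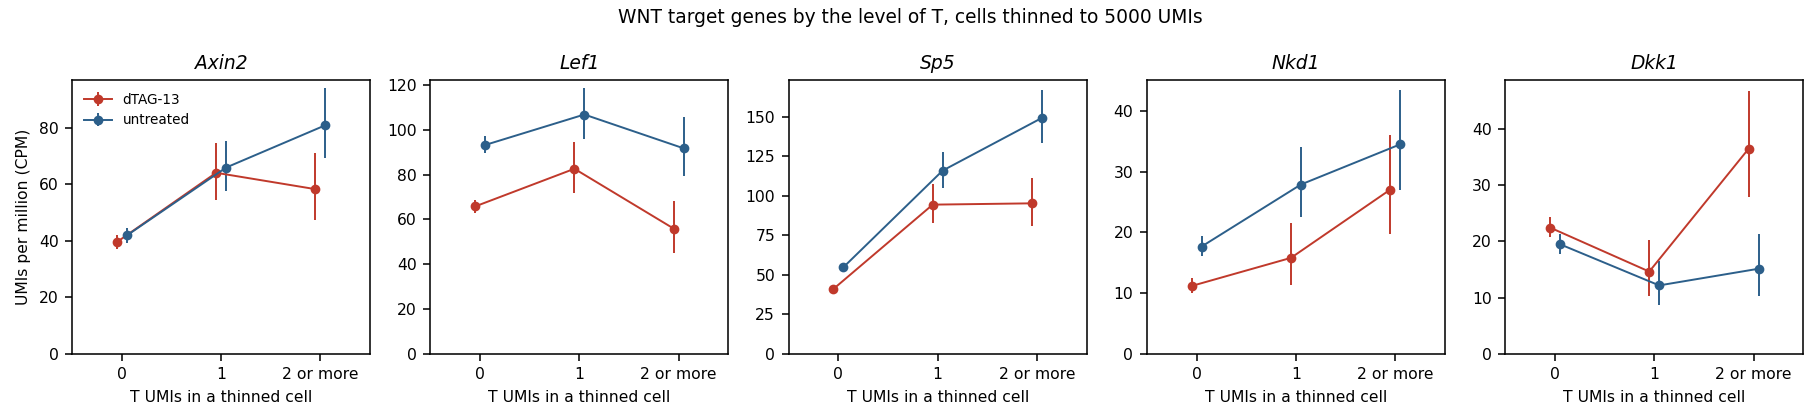
CPM of Axin2, Lef1, Sp5, Nkd1 and Dkk1 in cells thinned to 5000 UMIs and grouped by their T UMIs, dTAG-13 in red and untreated in blue, with exact 95% Poisson intervals. At 2 or more T UMIs, Axin2 had 58.2 CPM in dTAG-13 and 80.9 CPM in untreated, while Dkk1 had 36.5 CPM in dTAG-13 and 15.1 CPM in untreated. The groups include cells positive for other markers, such as Foxa2.

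The rest of the pathway was read from a list of 87 further genes in 6 roles, of which 79 were measured over whole libraries, 10 called higher and 12 lower, with a median ratio of 0.01. Over all genes measured 8.70% were called higher and 3.30% lower, the shares against which these counts and those by role are set. Ligands went both ways, 4 higher and 4 lower of 15. Wnt3a, the ligand of the tail bud, had 2.51 CPM in dTAG-13 and 7.20 CPM in untreated (-1.52), and Wnt5b, a non-canonical ligand, was also called lower (-0.75). Wnt4 had 16.6 CPM in dTAG-13 and 7.70 CPM in untreated (1.11), and Wnt8a had 30.6 CPM in dTAG-13 and 19.98 CPM in untreated (0.62). Wnt3a was lower in each gate where it was measured, with ratios of -0.93 in the T gate, -1.27 in Sox2, -1.18 in Tbx6 and -1.48 in Sfn.

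Of R-spondins and their other receptors, 0 of 4 were called higher and 1 lower, which was Rspo3, with 124 CPM in dTAG-13 and 204 CPM in untreated (-0.72). By gate Rspo3 was at -0.17 in T, -0.41 in Sox2 and -0.58 in Tbx6, but at 0.20 (0.12 to 0.28) in Meox1. Among Frizzled and co-receptor genes 1 of 14 was called higher, Fzd5 (0.84), and 0 lower. Fzd5 was highest in Sox17-positive cells, with 105 CPM in dTAG-13 and 85.6 CPM in untreated. Its ratio was 0.83 in the T gate, 0.61 in Sox2, 0.30 in Sox17 and -0.23 (-0.47 to 0.01) in Foxa2. Secreted and membrane inhibitors had 4 higher and 1 lower of 15, with Kremen1, a receptor for Dickkopf proteins, at 6.35 CPM in dTAG-13 and 4.16 CPM in untreated (0.61). Cer1, a secreted antagonist of Nodal, BMP and WNT, was at 0.59, while Nkd2, the paralog of Nkd1, was at -0.58 and not called. Sox17-positive cells were highest for Cer1, with 148 CPM in dTAG-13 and 132 CPM in untreated (0.17, -0.03 to 0.36). Its ratio was 1.76 in the T gate and 2.20 in Sox2, but -0.45 (-0.62 to -0.28) in Foxa2 and -1.51 (-2.30 to -0.71) in Pim2. In dTAG-13, Cer1 had 52.2 CPM in the Foxa2 gate and 4.16 CPM in T, and Fzd5 31.1 and 3.66 CPM. Foxa2-positive cells made up 17.3% of the dTAG-13 and 7.43% of the untreated T gate. In the Sox2 gate they made up 7.35% (dTAG-13) and 2.07% (untreated). Their part in the T and Sox2 ratios of Cer1 and Fzd5 was not tested. Of 16 intracellular genes only Tcf7l1 was called, with 40.9 CPM in dTAG-13 and 26.7 CPM in untreated (0.62, 0.56 to 0.68). Tcf7l1 encodes TCF3, mostly a repressor of WNT targets, and its related factor Tcf7l2 was at 0.49 (0.42 to 0.57). Over whole libraries the pair stood on the other side of 0 from Lef1 and from Tcf7, whose interval held 0 in 5 of 9 gates. By gate Tcf7l1 was at 0.83 in T and 0.77 in Sox2, but its interval held 0 in Meox1, Foxa2, Sox17 and Zfp42. Tcf7l2 was at 0.63 in T and 0.46 in Sox2, and at -0.01 (-0.21 to 0.19) in Meox1. Of 15 other targets, 0 were called higher and 6 lower. Among these were Myc (-0.70), the mesoderm factor Tbx6 (-1.61), and Cdx4 (-1.29) and Cdx2 (-0.61), which pattern the posterior body. In the T gate Myc was at -0.66, Tbx6 at -1.15, Cdx4 at -0.92 and Cdx2 at -0.47. Intervals held 0 for Myc in Tbx6, Tbx6 in Meox1 (-0.17, -0.43 to 0.08), Cdx4 in Pim2 (-0.22, -0.62 to 0.20) and Cdx2 in Zfp42 (0.06, -0.10 to 0.22). Tbx6 also defines a gate, and the number of cells in that gate was lower in dTAG-13 too.

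Likeness of profiles was measured as Pearson's r of log2(CPM + 1) over the 9 gates in both libraries, 18 points that share cells, among 6972 genes with at least 20 CPM in a gate, and is given as a description. Axin2 was closest to Cdx4 (0.92), Hes7 (0.91) and Hoxb6 (0.90). Dkk1 was closest to Srgap1 (0.97), Amot (0.97) and Kdelr3 (0.97), and Lgr5 to Frem1, Vegfa and Apbb2 (0.97, 0.97 and 0.96). For Rnf43 the nearest genes were Smoc2 (0.95), Dsp (0.93) and Crot (0.92), and for Notum they were Grsf1 (0.92), Acot7 (0.91) and Gm53 (0.89). Sp5 was nearest to Kitl (0.94), Specc1l (0.93) and St3gal6 (0.92), and Lef1 to Apex1 (0.95), Mphosph9 (0.94) and Bora (0.94). Nkd1 had Aida, Gm49708 and 1700123O20Rik at 0.95 each, Tcf7 had Mafg at 0.94, Dctd at 0.80 and Ppic at 0.78, and Znrf3 had none above 0.74 (Rnf227). Between members, Dkk1 and Lgr5 had r of 0.89, Axin2 and Notum 0.83, Sp5 and Dkk1 0.83, and Lef1 and Lgr5 -0.61.

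Positions are those of GENCODE M21 on GRCm38. Reads of genes overlapping on the opposite strand may not be told apart where strand use in counting is not given. This concerns Axin2 (Gm11670), Notum (Notumos and Myadml2os), Lgr5 (A930009A15Rik), Lef1 (Gm43352), Tcf7 (A630014C17Rik) and Rnf43 (Gm25968). Whatever the strand use, Lef1 overlaps Gm42449, Tcf7 Gm26551, Nkd1 Gm45496 and Rnf43 1110028F11Rik on the same strand. Sp5, Dkk1 and Znrf3 overlap no annotated gene.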

How the data were processed

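The authors deposited unnormalized UMI counts, 1 whole number for each gene in each barcode. Per the submitters' processing notes, Cell Ranger 6.1.2 produced them on mm10. The annotation release and the use of strand in counting are not given in those notes. There were 7873 dTAG-13 barcodes with 176677276 UMIs and 7276 untreated barcodes with 158002807 UMIs, and 14 barcodes occurred in both. Barcodes with under 1000 genes or over 10% mitochondrial UMIs were left out (693 dTAG-13, 630 untreated). Scrublet in scanpy 1.11.5 marked 0 dTAG-13 and 1 untreated doublets by its automatic threshold, so the highest scores, 0.8% per 1000 barcodes, were removed instead (492 dTAG-13, 415 untreated of the passing barcodes).

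Counts were summed over kept cells or gates and scaled to the summed UMIs, and ratios had no prior. Intervals were computed with scipy 1.17.1 and tested on whole-library counts simulated as independent Poisson draws, the model that the intervals assume. That test does not cover gates or UMIs concentrated in few cells. Gates were compared where each library had at least 50 cells. Each member is 1 of 10 fixed symbols. Pathway genes are named as up to 4 per role with the largest absolute ratio among those with at least 5 CPM in a library, and nearest profiles as 3 per member. Members, gates and lists were chosen with earlier results of these data known. Alternatives covered cell filters, doublets, depth (cells thinned to 5000 UMIs, which left out 81 dTAG-13 and 87 untreated cells), gates, priors of 1 and 5 CPM and scaling (edgeR 4.0.16 TMM, median of ratios). In the thinned alternative the gates were read again from the thinned counts, so the cells of a gate changed along with depth. Of 32285 gene identifiers, 32158 matched GENCODE M21. Promoter windows are from RefSeq, and a protein comparison was not done.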

Additional observations from a re-analysis of the deposited data

Results flagged for a closer look

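Each result here has gates in which the libraries differ in opposite directions with counting intervals on both sides of 0, the difference between gates was not tested, and gates share cells. Dkk1 had a log2 ratio of dTAG-13 over untreated of 2.83 in the Sfn gate and -1.02 in the Pim2 gate, with 408 dTAG-13 and 14 untreated UMIs in the Sfn gate and 86 dTAG-13 and 48 untreated UMIs in the Pim2 gate. The Sfn ratio turned to -0.32 with thinned cells and the Pim2 ratio to 0.058 with no doublet removal. Without Foxa2- or Sox17-positive cells both intervals held 0 (Sfn 0.80, -0.05 to 1.77, and Pim2 -0.37, -1.03 to 0.34). Sp5 had 0.33 in the Zfp42 gate and -1.08 in the Foxa2 gate, and the Zfp42 ratio turned to -0.23 with gates at 1 UMI and to -0.34 with thinned cells. Lef1 had 0.28 in the Foxa2 gate and -0.51 in the T gate, and -0.23 (-0.38 to -0.08) in cells positive for T alone. Lgr5 had 0.85 in the T gate and -0.50 in the Foxa2 gate.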

How the results depend on the processing

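Rnf43 stayed the single member called higher over whole libraries under every alternative except a prior of 5 CPM, which left 0 higher and 0 lower. The number called lower was 2 rather than 1, Notum joining Nkd1, with at most 5% mitochondrial UMIs, no doublet removal, cells thinned to 5000 UMIs, TMM scaling or median-of-ratios scaling. The scalings shifted log2 ratios by at most 0.06. By gate, where 10 combinations were called higher and 9 lower, the number higher was 5 with gates at 1 UMI and 3 with thinned cells, where 60 combinations rather than 102 were measured. Gates with no cells of other gates gave 6 higher and 3 lower of 60. The number lower was 16 with no doublet removal and, in an alternative chosen after seeing the data, 4 without Foxa2- or Sox17-positive cells. Among combinations past 1.5-fold, Dkk1 turned sign in 4 cases: to -0.089 in T and Sox2 cells with no other marker, to -0.32 in the Sfn gate with thinned cells, to 0.058 in the Pim2 gate with no doublet removal, and to -0.11 in the Sox2 gate without Foxa2- or Sox17-positive cells. Its whole-library ratio, short of 1.5-fold, turned to -0.25 without those cells. The causes were not tested. In untreated cells 5 of 10 members kept their highest gate with exclusive gates, but no Sox17 gate was left there (fewer than 50 untreated cells were positive for it alone), so the 4 members highest in it could not keep it. With gates at 3 UMIs the share part and the part within strata had opposite signs in 2 members rather than 1. Of 792 single values under alternatives, 72 changed sign, 18 of them with a counting interval that excluded 0 in the value as reported and 4 of them past 1.5-fold there. Exclusive gates gave 17 of the 72 and thinned cells 20. In all, 674 of the 792 stayed within the counting interval of the value as reported. No paired analysis was possible because each condition has 1 library. Below 50 UMIs, as for Lgr5 in the Tbx6, Pim2, Sfn and Zfp42 gates and Rnf43 and Notum in the Sox17 gate, no ratio was given.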
